A study of Mus musculus with 21 samples.

Results

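The nuclear-encoded genes of the mitochondrial respiratory chain were examined in inflammatory monocytes (IMs) from tumors and from bone marrow (BM). Members were chosen by symbol alone: every gene whose name begins with Nduf, Uqcr, Cox4 to Cox8 or Atp5, together with Sdha, Sdhb, Sdhc and Sdhd. The rule found 92 of the 23420 gene symbols in the count table. Of these, 7 encode core and 29 accessory subunits of complex I, 7 are complex I assembly factors, 4 belong to complex II, 8 to complex III and 15 to complex V. Complex IV contributed 12 widely expressed subunits and 8 isoforms restricted to certain tissues or conditions. The remaining 2, Atp5s and Atp5sl, carry the name of ATP synthase but are not subunits of its catalytic core.

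The respiratory chain is a set of protein complexes in the inner mitochondrial membrane. Complex I takes electrons from NADH and complex II takes them from succinate, complex III passes them to cytochrome c, and complex IV hands them to oxygen. The proton gradient built on the way drives complex V, the ATP synthase. Most subunits are encoded in the nucleus and a small core is encoded in mitochondrial DNA, and the latter was not analysed here. Activated myeloid cells are known for a shift of their energy metabolism between respiration and glycolysis.

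The study asked how IMs differ between healthy marrow and lung tumors. BM IMs came from healthy, naïve FVB mice (n = 3) and DBA2 mice (n = 3). Tumor IMs (TIMs) came from FVB mice given 500000 KAL-LN2-E1 (LN2E1) cells per mouse by injection into the lung, from the primary lung tumor (n = 5) and from lymph node metastases (n = 5), and from lungs with tumors of DBA2 mice given 300000 LN4K1 cells per mouse intravenously (n = 5). Both lines are squamous lung cancer lines. The study's methods give both sexes and an age of 8 to 15 weeks at injection for its animals, without separating these groups. Cell line, strain, route of injection and site changed together between the models and cannot be told apart. The sources used here do not say whether primary tumor and lymph node samples came from the same mice. The methods call the samples technical replicates, so p-values measure only the spread between these samples, which may be technical.

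IMs were isolated by magnetic separation, by sorting of CD45+CD11b+Ly6Chi Ly6G- cells, or by both. The methods state that Siglec-F+ cells were gated out of lung tissue, a step meant to remove alveolar macrophages and eosinophils. The study's sample gating scheme, given for tumor samples and healthy marrow, also takes IMs from live Siglec-F- cells. The labelled cell type was checked against a list of 10 monocyte markers. All of them were present in every group, with a summed level between 41600 and 127000 CPM (counts scaled to library size) per library. Total counts ranged from 80772922 to 101043568 per library. A gene without a count could still have had a level of 3 counts, by counting error alone. LN4K1 lung replicate 3 stood apart from the other libraries of its group. The counts of called members against DBA2 BM and for the difference between the models are also given without it. Other tests of LN4K1 lung TIMs include it. The 12 cell cycle genes on a fixed list fell in each TIM group against its marrow, with a sum of 2280 to 2670 CPM per BM library and 102 to 232 CPM per TIM library. The 8 markers of neutrophil precursors summed to between 2830 and 5010 CPM in BM libraries and to between 15 and 501 CPM in TIM libraries, and 8 eosinophil markers went from between 491 and 1330 to between 18.9 and 90.2 CPM. Markers of epithelium and tumor summed to at most 3.97 CPM in BM libraries and reached 784 CPM in primary tumor TIMs, 141 CPM in lymph node TIMs and 153 CPM in LN4K1 lung TIMs. Markers of fibroblasts and endothelium summed to at most 15.3 CPM in BM libraries, 416 to 1140 CPM in primary tumor TIMs, 67.6 to 187 CPM in lymph node TIMs and 6.90 to 53.7 CPM in LN4K1 lung TIMs. Macrophage markers summed to 1230 to 1390 CPM in FVB BM, 2180 to 2860 CPM in primary tumor and 2230 to 3610 CPM in lymph node TIMs, and to 754 to 1900 CPM in DBA2 BM and 3660 to 5300 CPM in LN4K1 lung TIMs. The part of these other cells in the results below was not tested. In sorted bulk RNA, fewer cells of a type and less RNA per cell cannot be told apart.

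The 92 genes took a smaller share of the counts in TIMs than in BM IMs. In FVB BM IMs they took 1.74%, 1.76% and 1.54% of the counts of the 3 libraries. In DBA2 BM IMs the share lay between 1.42% and 1.48%. Primary tumor TIMs were lowest and narrowest, between 0.955% and 1.05%, and lymph node TIMs ranged from 0.871% to 1.26%. LN4K1 lung TIMs ranged from 1.12% to 1.44% and touched the range of their own marrow. Scaled by TMM, which corrects for the composition of each library, the sum over the members was 15000 ± 1790 CPM in FVB BM (SD, n = 3), 10220 ± 530 CPM in primary tumor TIMs (SD, n = 5) and 11710 ± 1500 CPM in lymph node TIMs (SD, n = 5). It was 12520 ± 344 CPM in DBA2 BM (SD, n = 3) and 13320 ± 1850 CPM in LN4K1 lung TIMs (SD, n = 5), so the groups of that model overlapped on this scale.

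**Figure D1:**
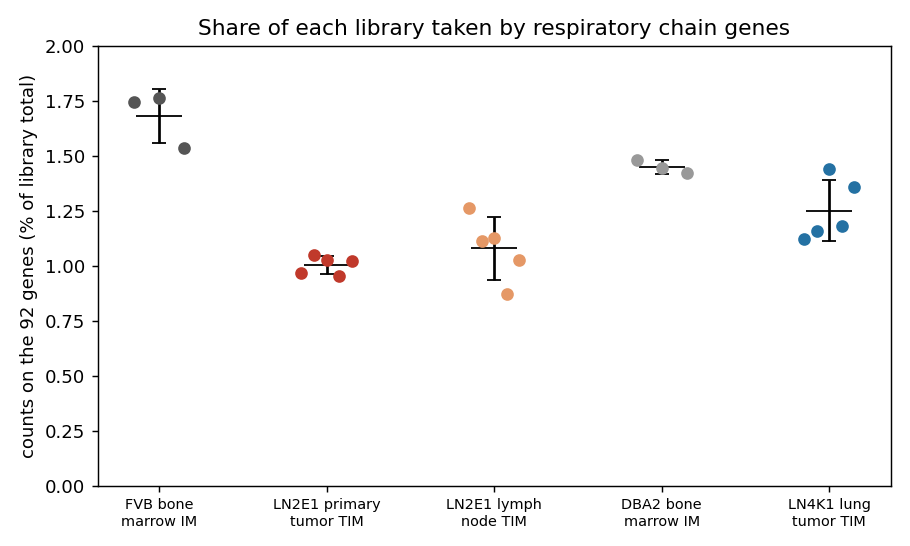
Share of each library's counts (%) on the 92 respiratory chain genes, one point per library, with the mean and SD of each group as bars. All 10 libraries of LN2E1 TIMs lie below the lowest FVB marrow library (1.54%), whereas LN4K1 lung TIMs reach 1.44%.

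In primary tumor TIMs most of the chain fell. Of 87 members that passed the filter on low counts, 77 were lower than in FVB BM IMs at an edgeR quasi-likelihood adjusted p under 0.05, a call made in that direction for 28.6% of all genes tested. Only 2 members, Sdhc and Cox6a2, were higher, against 33.3% of all genes. The median log2 fold change of the members was -0.61, and that of all genes tested was 0.08. For 68 of the 87 members every primary tumor library lay below every FVB BM library, which held for 27.3% of all genes. The stricter threshold used by the study, an adjusted p under 0.0001 with an absolute log2 fold change above 1, was passed by 6 members against 12.9% of all genes: Cox6b2, Ndufaf6, Atp5g2, Ndufaf4 and Ndufb11 were lower and Cox6a2 was higher. In this test most changes were therefore small and seen in nearly all subunits. With a trend of the counts with exon length removed, as described below, 42 members were lower and 9 higher (59.4% of all genes called in either direction).

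Lymph node TIMs differed less from the same marrow, in libraries that were more spread out. Of 87 members tested, 19 were lower (17.2% of all genes) and 1 was higher (20.2% of all genes), with a median log2 fold change of -0.32 against -0.04 for all genes. Every lymph node library lay below every marrow library for 16 of 87 members, and the same was true of 22.8% of all genes. No member passed the study's stricter threshold in edgeR's test, which 5.71% of all genes passed. DESeq2 put 4 members past it. The count of called members depended on single libraries: it was 37 without lymph node replicate 1 and 11 without either FVB BM replicate 1 or replicate 2. The 2 comparisons share the FVB BM libraries, so their likeness is partly built in.

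In LN4K1 lung TIMs the chain as a whole did not fall against DBA2 BM IMs. Of 86 members tested, 4 were lower (11.0% of all genes) and Cox6a2 was higher (13.9% of all genes), and the median log2 fold change was 0.12, with 0.03 over all genes. The 4 lower members were Atp5g2, Atp5a1, Cox6b2 and Uqcrc1. All 5 lung libraries lay above all 3 marrow libraries for 25 members and below them for 4, as was seen for 19.9% and 14.9% of all genes. Without LN4K1 lung replicate 3 the count of called members was 14, of which 5 were higher and 9 lower, and the median was 0.00. Leaving out any 1 DBA2 BM library left 2 calls. The study's stricter threshold was passed by no member in edgeR's test (2.97% of all genes) and by 1 with DESeq2. Against FVB BM in place of DBA2 BM, a comparison added after seeing the data that mixes strain with tumor, 14 members were called, 4 higher and 10 lower.

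The models differed when their changes were tested against each other. The change in primary tumor TIMs minus the change in LN4K1 lung TIMs was negative for 63 of 88 members at an adjusted p under 0.05 in edgeR's interaction test, a call made for 13.3% of all genes. It was positive for none (13.2% of all genes), while 1 member was positive at an unadjusted p under 0.05 and DESeq2 called 1. The median difference over the members was -0.69 on the log2 scale and that over all genes was 0.08. Without LN4K1 lung replicate 3, 67 members were called, all negative, with a median of -0.59. In that setting 31.0% of all genes were called in either direction.

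**Figure D2:**
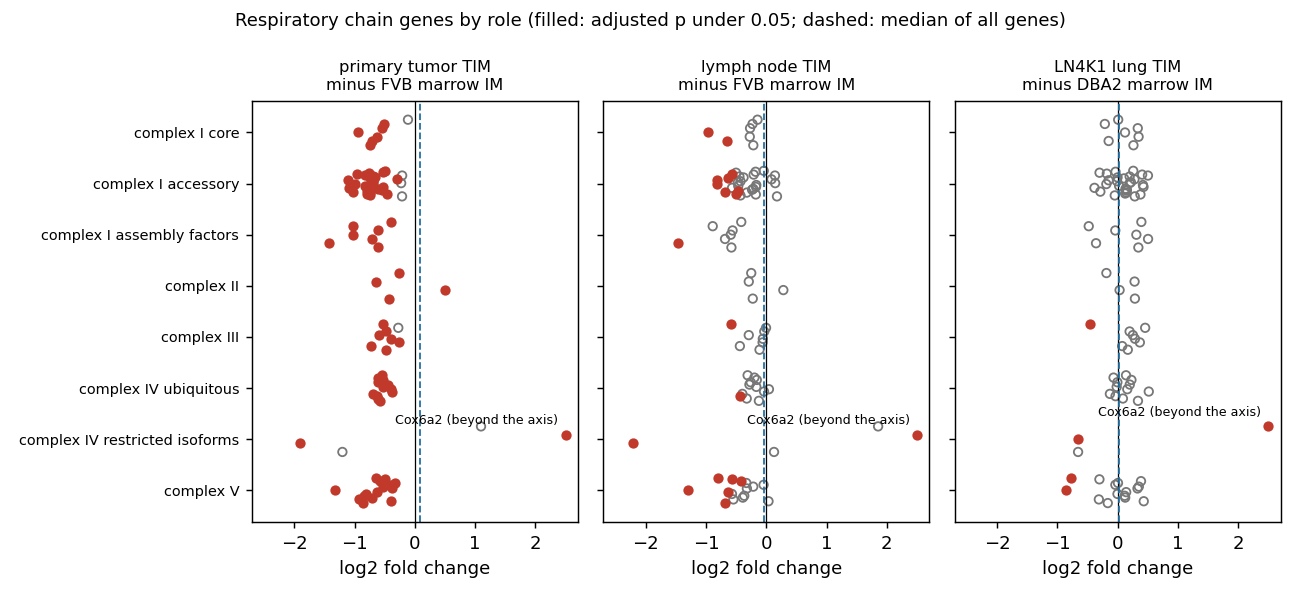
Log2 fold change of each tested respiratory chain gene, in rows by role, for primary tumor, lymph node and LN4K1 lung TIMs against marrow IMs of the same strain. Filled points passed an adjusted p of 0.05 and the dashed line is the median of all genes tested. Atp5s and Atp5sl are not drawn. Most points of the left panel are filled and lie left of 0, whereas in the right panel 4 do, and Cox6a2 lies beyond the axis in each panel.

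Many of these genes are short, and short genes as a class moved the same way. The exon length of the members, taken as the union of their annotated exons, had a median of 992 bases, and 46 of the 92 lay under 1000 bases. Among genes with a mean of at least 100 counts the median was 3203 bases and 5.38% lay under 1000. Among primary tumor TIMs, the 901 tested genes under 1000 bases that are not members had a median log2 fold change of -0.45 against FVB BM, whereas the 2139 genes of at least 6000 bases had one of 0.53. In lymph node TIMs the short genes without the members had a median of -0.36, and in LN4K1 lung TIMs the median was 0.14. The members' medians of -0.61, -0.32 and 0.12 followed these values in order.

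Values were also compared library by library. The median deviation of 86 members from their mean over the groups was compared with that of 564 other short genes on the log2 CPM scale. Primary tumor TIMs had members' values between -0.44 and -0.19 and values of the other short genes between -0.43 and -0.23. LN4K1 lung replicate 3 had 0.56 for the members and 0.59 for the others, and lung replicate 5 had 0.32 and 0.37. Lung replicates 1, 2 and 4 had between -0.07 and 0.04 for the members and between -0.05 and 0.06 for the others. The 3 FVB BM libraries had 0.42, 0.33 and 0.04 for the members and 0.36, 0.29 and 0.04 for the others. Lymph node replicate 4 was lowest on both, with -0.44 and -0.51, and lymph node replicate 1 was highest of its group on both, with 0.26 and 0.10. The 3 DBA2 BM libraries lay close to 0 on both and in no like order, between -0.04 and 0.01 for the members and between 0.01 and 0.03 for the others. RNA quality, fragment length and amplification were not recorded in the sources used here, and their part was not tested.

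**Figure D3:**
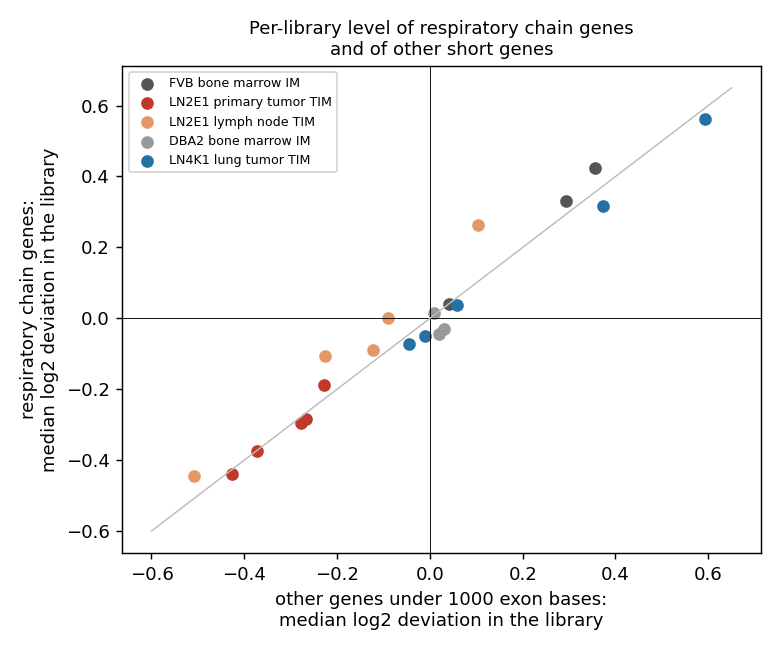
Median log2 deviation of the respiratory chain genes (vertical axis) against that of other genes under 1000 exon bases (horizontal axis), one point per library, colored by group. The grey line marks equal values. The 5 primary tumor libraries lie at the lower left and LN4K1 lung replicate 3 (0.59, 0.56) at the upper right.

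When a smooth trend of the counts with exon length was removed from each library, fewer members were called. In primary tumor TIMs 42 members were then lower and 9 higher than in FVB BM, with a median log2 fold change of -0.26 and one of -0.01 for all genes. The 51 called members of 87 stood beside 59.4% of all genes called in either direction, so their number over both directions was near that share. The share of all genes called lower in this setting was not taken, so an excess of lower calls was not assessed. Among the 9 were short members that had been called lower before, such as Uqcrh of complex III (-0.26, then 0.40), Atp5e and Atp5l of complex V (then 0.29 and 0.26), Uqcr11 (then 0.23) and Ndufa1 (then 0.20). Of the 41 members under 1000 bases, 15 were lower and 8 higher, with a median of -0.07, and of the 46 longer members 27 were lower and 1 was higher, with a median of -0.30. In lymph node TIMs 8 members were lower and 12 higher (36.4% of all genes called either way), and the median was 0.04. In LN4K1 lung TIMs 7 were lower and 6 higher (27.4% of all genes). The difference between the models was called for 17 of 88 members, all negative, beside 20.9% of all genes called in either direction. Its median was -0.27 over the members and -0.05 over all genes. The union of exons can be longer than the main transcript, and which forms these cells use was not tested. The longest unions were those of Atp5g1 (4912 bases), whose log2 fold change in primary tumor TIMs went from -0.38 to -0.82, and Ndufab1 (4387 bases). A trend shared by short genes and a change of the chain itself cannot be separated fully for genes so alike in length.

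**Figure D4:**
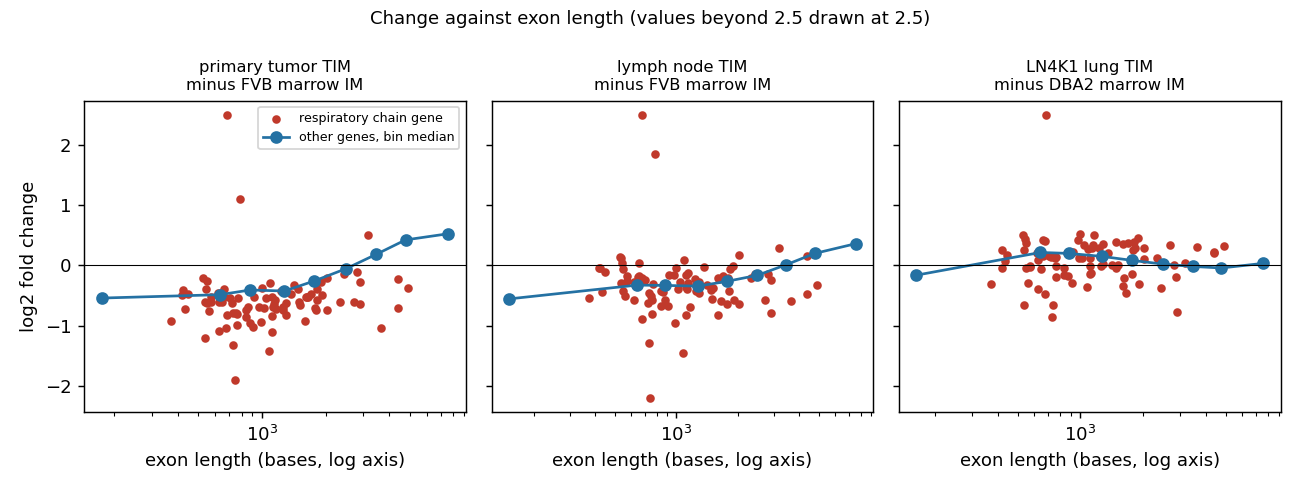
Log2 fold change against exon length (log axis, bases) for the respiratory chain genes (red points) and for the median of other genes in bins of length (blue line), in the 3 comparisons with marrow. In the left panel the blue line climbs from about the members' level to 0.53 at the longest genes, whereas in the right panel it lies between -0.16 and 0.21 and declines with length from its second point to -0.04 at 4000 to 6000 bases.

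Complex I is the largest of the complexes. In primary tumor TIMs 6 of 7 core subunits fell (median -0.63), as did 25 of 28 accessory subunits (median -0.70) and 7 of 7 assembly factors (median -0.72). Of all genes, 28.6% were lower there. With length removed, 5 core subunits, 18 accessory subunits and 3 assembly factors were lower and 2 accessory subunits were higher. In that setting 59.4% of all genes were called in either direction, and the share called lower was not taken. In lymph node TIMs 2, 7 and 1 of these fell (17.2% of all genes). In LN4K1 lung TIMs none of the core, accessory or assembly genes was called by edgeR at an adjusted p under 0.05. Of all genes, 11.0% were lower and 13.9% higher there.

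Ndufv1, the subunit that binds NADH, kept its fall under the length correction. It measured 183, 198 and 164 CPM in FVB BM IMs and 119, 115, 118, 105 and 109 CPM in primary tumor TIMs, without overlap. The log2 fold change was -0.70 (SE 0.09, edgeR adjusted p = 8.47e-05), and with length removed it was -0.50 (edgeR adjusted p = 0.000258). In lymph node TIMs it measured 135, 103, 111, 103 and 130 CPM, a log2 fold change of -0.64 (SE 0.13, edgeR adjusted p = 0.00407). In LN4K1 lung TIMs, at 130, 134, 115, 137 and 146 CPM, it overlapped the 145, 134 and 138 CPM of DBA2 BM IMs. Ndufs1, the largest subunit of the same module and a long transcript (2819 bases), did not pass the test in any of the 3 comparisons. It measured 89.2, 95.3 and 82.3 CPM in FVB BM IMs and between 78.1 and 90.9 CPM in primary tumor TIMs, a log2 fold change of -0.11 (SE 0.09). Its exons overlap a gene on the other strand, whose reads these unstranded libraries cannot separate. Other members have such overlaps too, among them Atp5a1, Ndufb6, Cox5a, Ndufb11 and Ndufab1.

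Ndufs7, which carries the last iron-sulfur cluster before ubiquinone, fell in both LN2E1 sites. It measured 212, 200 and 157 CPM in FVB BM IMs, between 90.9 and 107 CPM in primary tumor TIMs and between 79.6 and 120 CPM in lymph node TIMs, and no TIM library reached the lowest marrow library. The log2 fold changes were -0.94 (SE 0.10) and -0.96 (SE 0.16), and with length removed they were -0.50 and -0.56, still at edgeR adjusted p = 0.000247 and 0.00368. LN4K1 lung TIMs, at 151, 155, 228, 164 and 200 CPM, were not lower than DBA2 BM IMs, at 166, 140 and 163 CPM, and the difference between the models was -1.04 (SE 0.18, edgeR adjusted p = 0.00131). Ndufa12, an accessory subunit, measured 48.0, 43.1 and 31.8 CPM in FVB BM IMs and between 17.2 and 20.8 CPM in primary tumor TIMs, a log2 fold change of -1.11 (SE 0.14, edgeR adjusted p = 0.000108).

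Ndufaf6, an assembly factor, had the largest fall within complex I at both LN2E1 sites. It measured 15.3, 19.2 and 15 CPM in FVB BM IMs. It was between 5.29 and 6.80 CPM in primary tumor TIMs and between 5.01 and 7.13 CPM in lymph node TIMs. These are log2 fold changes of -1.43 (SE 0.14, edgeR adjusted p = 2.66e-05) and -1.46 (SE 0.24, edgeR adjusted p = 0.00105), and both held with length removed, at -1.02 and -1.07. In LN4K1 lung TIMs, at 8.31, 11.6, 12.9, 11.4 and 12.2 CPM, it overlapped the 13.0, 16.2 and 12.0 CPM of DBA2 BM IMs and was not called (log2 fold change -0.36, SE 0.19).

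Ndufaf4, another early assembly factor, was steady within groups except for single libraries. It measured 22.4, 22.4 and 20.02 CPM in FVB BM IMs and 10.1, 10.8, 10.1, 10.3 and 12.3 CPM in primary tumor TIMs (log2 fold change -1.03, SE 0.12, edgeR adjusted p = 5.48e-05). In lymph node TIMs replicate 1 measured 28.5 CPM and the other 4 libraries measured between 9.21 and 12.3 CPM, and the comparison was not called. Replicate 3 of LN4K1 lung TIMs measured 29.0 CPM and the other 4 between 13.3 and 16.8 CPM. DBA2 BM IMs, at 12.9, 14.9 and 12.5 CPM, were lower than FVB BM IMs (log2 fold change -0.66, SE 0.15, edgeR adjusted p = 0.0163), so that the models started from different levels. The gene has an exon length of 3632 bases, and its fall in primary tumor TIMs did not shrink with length removed (-1.28).

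Among called members with a mean log2 CPM above 3, Ndufa6, Ndufv2 and Cox7a2l had the largest differences between the LN2E1 sites. Ndufa6, an accessory subunit, measured 69.2, 79.9, 75.9, 67.7 and 75.5 CPM in primary tumor TIMs and 142, 112, 107, 80.8 and 116 CPM in lymph node TIMs, without overlap (log2 fold change 0.61, SE 0.13, edgeR adjusted p = 0.0123). Ndufv2, a core subunit of the NADH-binding module, measured between 92.8 and 107 CPM in primary tumor TIMs and between 113 and 188 CPM in lymph node TIMs, again without overlap (0.51, SE 0.13, edgeR adjusted p = 0.0246). Cox7a2l, which joins complexes III and IV into larger assemblies, was higher by 0.44 (SE 0.11, edgeR adjusted p = 0.0222). With length removed Ndufa6 and Ndufv2 kept their calls, at 0.46 each, and Cox7a2l did not (0.32, edgeR adjusted p = 0.0531). In all 12 members were higher in lymph node TIMs (6.15% of all genes) and none was lower (5.55% of all genes), with a median of 0.28. None was lower at an unadjusted p under 0.05 in edgeR's test, and DESeq2 called 1 lower. The count was between 2 and 10 without a single library of either group, except that it was 37 without lymph node replicate 4.

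Ndufb6, a membrane-arm accessory subunit of 659 bases, shows how the correction acts on a short gene. It measured 96.7, 89.8 and 72.7 CPM in FVB BM IMs and between 52.6 and 69.5 CPM in primary tumor TIMs. The log2 fold change of -0.52 (SE 0.12, edgeR adjusted p = 0.00422) turned to 0.07 with length removed. Ndufs5, also an accessory subunit, had between 0 and 4 counts in every library, and no level can be given for it. How reads that fit several places in the genome were counted is not given in the sources used here.

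Promoters of the members were read from the RefSeq table of GRCm38.p6, which matched 76 of the 92 by symbol or synonym. Members without an entry included Ndufs1, Ndufa2, Ndufa4l2, Ndufaf6, Ndufb9, Sdhc, Uqcrb, Uqcrc2, Uqcrq, Cox4i1, Cox4i2, Cox6a2, Cox6c, Cox8c and Atp5a1. The windows of 300 bases, from 250 before to 50 after the start site, were searched on both strands for the motifs of factors known to drive these genes. GCGCANGCG, the motif of NRF1, was found in 21 of 76 windows (27.6%) and in 6.47% of all 27025 promoters. CCGGAAG, bound by GABPA and other ETS factors, was found in 21.1% against 9.12%, and AAGATGGCG of YY1 in 9.21% against 1.49%. For the other motifs the shares were 44.7% against 35.9% for GGGCGG of SP1 and KLF factors, 3.95% against 1.26% for TNAAGGTCA of ESRRA, and 26.3% against 19.7% for ACGTG, the core of the hypoxia response element. A match is a description of the letters, not a site of binding.

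The changes of members with and without a match are given as values, and their difference was not tested. In primary tumor TIMs the 20 tested members with an NRF1 match had a median log2 fold change of -0.71 and the 53 without had -0.61. For ETS the medians were -0.53 with and -0.70 without a match, and for the hypoxia core -0.52 with and -0.70 without, where 15 of 19 and 53 of 54 members were lower. The medians in LN4K1 lung TIMs with and without a match were 0.14 and 0.12 for NRF1, 0.24 and 0.12 for ETS, and 0.00 and 0.13 for the hypoxia core. The 250 bases upstream of the start, windows that hold no annotated exon, are shown for 3 members described here, on the strand of the gene, with NRF1 and ETS matches in capitals. The palindrome in Ndufaf4 matches NRF1 on both strands, and Ndufb6 and Cox8a each hold an ETS match in the bases shown. That of Cox8a runs past the start site and is shown in part. Another ETS match of Cox8a lies after the start site and is not shown. The windows lie at chr4:24897833-24898082 (plus strand), chr4:40279422-40279671 (minus strand) and chr19:7217617-7217866 (minus strand) of GRCm38.p6.
Ndufaf4: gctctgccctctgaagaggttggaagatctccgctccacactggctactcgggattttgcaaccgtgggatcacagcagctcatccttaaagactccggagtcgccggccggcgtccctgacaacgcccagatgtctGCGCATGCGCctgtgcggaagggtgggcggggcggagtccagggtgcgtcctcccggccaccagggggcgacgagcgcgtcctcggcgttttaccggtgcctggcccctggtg
Ndufb6: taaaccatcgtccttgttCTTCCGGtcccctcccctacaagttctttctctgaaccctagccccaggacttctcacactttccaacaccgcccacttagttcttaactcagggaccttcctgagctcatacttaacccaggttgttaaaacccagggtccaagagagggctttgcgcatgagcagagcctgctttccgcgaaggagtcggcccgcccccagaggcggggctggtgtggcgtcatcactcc
Cox8a: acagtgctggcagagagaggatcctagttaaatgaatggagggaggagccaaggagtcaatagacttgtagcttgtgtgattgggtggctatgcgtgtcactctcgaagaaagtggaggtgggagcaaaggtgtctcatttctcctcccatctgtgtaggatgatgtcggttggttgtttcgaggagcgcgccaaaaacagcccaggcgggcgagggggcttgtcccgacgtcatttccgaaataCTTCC

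Complex II is wholly nuclear-encoded and its 4 subunits did not move together. Sdha, the flavoprotein that oxidizes succinate, was slightly lower in primary tumor TIMs (239 to 278 CPM) than in FVB BM IMs (309, 336 and 289 CPM), with a log2 fold change of -0.27 (SE 0.08, edgeR adjusted p = 0.0171). Sdhb, the iron-sulfur subunit, went from 534, 520 and 425 CPM to between 285 and 341 CPM (-0.64, SE 0.10, edgeR adjusted p = 0.000308). The membrane anchor Sdhd fell by less (-0.42, SE 0.10, edgeR adjusted p = 0.00478), and with length removed it was at -0.04. Sdhc, the other anchor, went the opposite way: it measured 25.95, 24.8 and 39.1 CPM in FVB BM IMs and 42.8, 40.2, 49.7, 40.9 and 42.2 CPM in primary tumor TIMs, all above marrow (0.50, SE 0.17, edgeR adjusted p = 0.0259). It was also higher in DBA2 BM IMs, at 45.2, 59.7 and 53.5 CPM, than in FVB BM IMs (0.83, SE 0.21, edgeR adjusted p = 0.0253), and LN4K1 lung TIMs, at 52.7 to 61.6 CPM, stayed within 0.03 (SE 0.12) of DBA2 marrow on the log2 scale. Neither lymph node nor lung TIMs had a called member of complex II, by edgeR at an adjusted p under 0.05.

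Complex III fell by less than complex I in primary tumor TIMs, with 7 of 8 members lower (28.6% of all genes) at a median of -0.47. With length removed 1 was lower and 2 were higher, beside 59.4% of all genes called in either direction. Uqcrc1, a core protein of the complex, was 1 of the 4 members lower in LN4K1 lung TIMs. It measured 571, 522 and 478 CPM in DBA2 BM IMs and 440, 445, 350, 416 and 358 CPM in LN4K1 lung TIMs, without overlap (log2 fold change -0.46, SE 0.13, edgeR adjusted p = 0.0285). In FVB mice it measured 610, 646 and 539 CPM in marrow, between 382 and 470 CPM in primary tumor TIMs and between 350 and 440 CPM in lymph node TIMs. The log2 fold changes there were -0.53 (SE 0.10) and -0.59 (SE 0.12), and the difference between the models was -0.06 (SE 0.16). With length removed the lymph node change was -0.29 (edgeR adjusted p = 0.0735) and the other comparisons with marrow kept their calls. Uqcrfs1, the Rieske iron-sulfur protein that hands electrons on to cytochrome c1, fell in primary tumor TIMs (-0.47, SE 0.08, edgeR adjusted p = 0.000764) but was at -0.03 (SE 0.11) in lymph node TIMs, and was higher there than in primary tumor TIMs (0.43, SE 0.08, edgeR adjusted p = 0.00569). With length removed it was at -0.13 (edgeR adjusted p = 0.106) in primary tumor TIMs and higher in lymph node TIMs (0.33, edgeR adjusted p = 0.03).

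The widely expressed subunits of complex IV moved as a block. All 12 were lower in primary tumor TIMs, with log2 fold changes between -0.70 and -0.38. In lymph node TIMs 1 of 12 was lower, and in LN4K1 lung TIMs none of 12 was called by edgeR at an adjusted p under 0.05. Of all genes, 28.6%, 17.2% and 11.0% were lower in these comparisons. With length removed, 1 of 12 was lower and 1 higher in primary tumor TIMs (59.4% of all genes called in either direction) and the median was -0.01. Cox4i1, the widely expressed form of a regulatory subunit, was the most abundant member per kilobase, at 772 CPM per kilobase in FVB BM IMs and 534 in primary tumor TIMs. It measured 648, 605 and 520 CPM in FVB BM IMs and 371, 427, 450, 368 and 429 CPM in primary tumor TIMs (-0.55, SE 0.10, edgeR adjusted p = 0.00117), and -0.03 with length removed. Cox5a, another widely expressed subunit, measured 305, 275 and 228 CPM in FVB BM IMs, while primary tumor TIMs had 170 to 195 CPM and lymph node TIMs had 181 to 271 CPM. Its fold change was -0.61 (SE 0.10) in primary tumor TIMs, -0.20 (SE 0.15) in lymph node TIMs and 0.40 (SE 0.10, edgeR adjusted p = 0.0288) between these sites. With length removed it was at -0.01 (edgeR adjusted p = 0.925) in primary tumor TIMs and was higher in lymph node TIMs (0.31, edgeR adjusted p = 0.0167). Cox5b, Cox6a1 and Cox8a fell in primary tumor TIMs by 0.53, 0.61 and 0.63 on the log2 scale, and Cox7a2 by 0.40, while with length removed Cox6a1, Cox7a2 and Cox8a were at 0.03, 0.19 and 0.03. Ndufa4, a complex IV subunit first assigned to complex I, fell by 0.61 (SE 0.09) and was at -0.01 with length removed.

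Most of the 8 restricted isoforms were at or near 0. Cox8c had no count in any library, Cox7b2 had at most 11 counts and Cox8b at most 12, and Cox4i2, an isoform known from lung and from hypoxia, had between 3 and 57 counts. Ndufa4l2, which hypoxia is known to induce in place of Ndufa4, had at most 1 count in BM libraries and 1, 2, 70, 12 and 1 counts in primary tumor TIMs. LN4K1 lung replicate 4 had 22 counts, and the other lung libraries had at most 3. Cox7a1, the heart and muscle form, measured 1.43, 1.98 and 0.563 CPM in FVB BM IMs and between 0.430 and 0.826 CPM in primary tumor TIMs and was not called (edgeR adjusted p = 0.0569).

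Cox6b2, known as the testis form of a subunit at the surface of complex IV, was lower in all 3 TIM groups. It measured 38.0, 38.9 and 26.9 CPM in FVB BM IMs, 9.36, 8.43, 11.2, 7.35 and 10.2 CPM in primary tumor TIMs and 7.62, 10.2, 6.66, 4.16 and 8.91 CPM in lymph node TIMs. No TIM library came near marrow. The log2 fold changes were -1.91 (SE 0.17, edgeR adjusted p = 1.14e-05) and -2.20 (SE 0.28, edgeR adjusted p = 0.000229), and with length removed -1.37 and -1.75. In LN4K1 lung TIMs it measured 15.6, 12.9, 19.7, 12.7 and 17.3 CPM against 24.4, 23.6 and 21.9 CPM in DBA2 BM IMs, again without overlap (-0.66, SE 0.17, edgeR adjusted p = 0.0215). The fall was smaller there, with a difference between the models of -1.24 (SE 0.24, edgeR adjusted p = 0.00249), and DBA2 BM IMs were already lower than FVB BM IMs (-0.54, SE 0.16, edgeR adjusted p = 0.0427). Its widely expressed counterpart Cox6b1 measured 357, 353 and 283 CPM in FVB BM IMs and between 218 and 271 CPM in primary tumor TIMs.

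Cox6a2, the heart and muscle form of subunit 6a, was the one member with a large rise. The gene lies at chr7:128205435-128206387 on the minus strand of GRCm38. It had 8, 17 and 44 counts in FVB BM IMs and none in DBA2 BM IMs. Primary tumor TIMs had 1677, 2198, 1241, 2546 and 1428 counts, in lymph node TIMs 8571, 3969, 9336, 2220 and 847 counts, and in LN4K1 lung TIMs 495, 661, 42, 535 and 1456 counts. Every TIM library of the LN2E1 model lay far above FVB marrow, and LN4K1 lung replicate 3 was the lowest TIM library by far. The log2 fold changes were 6.47 (SE 0.50, edgeR adjusted p = 5.27e-06) in primary tumor and 8.08 (SE 1.04, edgeR adjusted p = 0.000229) in lymph node TIMs. With DBA2 marrow at 0, the mean of 7.01 CPM in LN4K1 lung TIMs was at least 221-fold higher than the highest limit that 3 counts give a single DBA2 library (0.0317 CPM, TMM-scaled), and lung replicate 3 alone was at least 17.9-fold higher. Lymph node and primary tumor TIMs overlapped (1.59, SE 0.53, edgeR adjusted p = 0.0781). The widely expressed Cox6a1, at 258 to 312 CPM in primary tumor TIMs, remained far more abundant.

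Siglech, a marker of plasmacytoid dendritic cells, moved with Cox6a2 over the TIM libraries. It had 30, 129 and 60 counts in FVB BM IMs and 46, 1 and 0 in DBA2 BM IMs. Primary tumor TIMs had between 5565 and 15851 counts, in lymph node TIMs 27101, 18500, 40184, 10596 and 3123, and in LN4K1 lung TIMs 2106, 2572, 321, 1659 and 4965. Over the 15 TIM libraries Cox6a2 ranged from 0.567 to 111 CPM, while the ratio of its counts to those of Siglech stayed between 0.131 and 0.322. The fixed list of 8 dendritic cell markers includes Siglech. Of these markers, 6 rose in primary tumor TIMs (33.3% of all genes) and 5 in lymph node TIMs (20.2% of all genes). In LN4K1 lung TIMs 3 of the markers rose (13.9% of all genes) and 1 fell (11.0% of all genes). Their summed level was 78.9 to 90.2 CPM in FVB BM, 94.3 to 112 CPM in DBA2 BM, 209 to 382 CPM in primary tumor TIMs, 148 to 743 CPM in lymph node TIMs and 140 to 354 CPM in LN4K1 lung TIMs, and none of the markers was at 0 throughout a group. In LN4K1 lung TIMs this sum was highest in replicate 3 (354 CPM), the library lowest for Cox6a2 (0.567 CPM) and Siglech (4.34 CPM). Siglech is itself part of the sum, at 477 of 743 CPM in lymph node replicate 3. The exons of Cox6a2 overlap those of Itgad on the other strand. Itgad had 55, 72, 6, 50 and 116 counts in LN4K1 lung TIMs, fewer than Cox6a2 in each library, and 374, 342 and 230 in DBA2 BM IMs, where Cox6a2 had none. The part of dendritic cells and of the overlap in the rise of Cox6a2 was not tested.

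**Figure D5:**
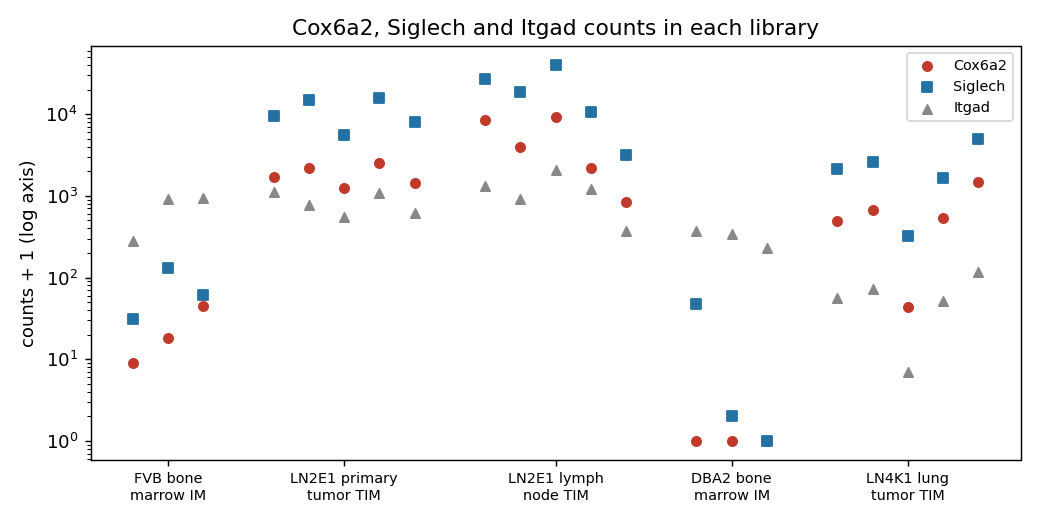
Counts plus 1 (log axis) of Cox6a2, Siglech and Itgad in each library, in groups. Cox6a2 and Siglech run in parallel over the 15 TIM libraries, with LN4K1 lung replicate 3 at 42 and 321 counts, and in DBA2 marrow Cox6a2 has no count and Siglech 46, 1 and 0.

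All 15 members of complex V were lower in primary tumor TIMs (28.6% of all genes), with a median of -0.63. With length removed 11 were lower and 2 higher, beside 59.4% of all genes called in either direction. In lymph node TIMs 6 of 15 were lower (17.2% of all genes), and in LN4K1 lung TIMs 2 (11.0% of all genes). Atp5b, the catalytic beta subunit, measured 1414, 1420 and 1173 CPM in FVB BM IMs, while primary tumor TIMs had 921 to 983 CPM and lymph node TIMs had 803 to 977 CPM, both below marrow, with log2 fold changes of -0.49 (SE 0.08) and -0.57 (SE 0.11). Atp5a1, the alpha subunit, was lower in all 3 TIM groups and changed little with length removed, as its exon length is 2904 bases. In DBA2 mice it measured 950, 852 and 850 CPM in marrow and 639, 672, 332, 611 and 467 CPM in LN4K1 lung TIMs (-0.77, SE 0.22, edgeR adjusted p = 0.0288). In FVB mice it measured 1093, 1093 and 966 CPM in marrow and between 646 and 732 CPM in primary tumor TIMs (-0.65, SE 0.08, edgeR adjusted p = 9.83e-05), with 465 to 673 CPM in lymph node TIMs (-0.80, SE 0.13). The difference between the models was 0.14 (SE 0.25).

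The 3 genes for the membrane ring of ATP synthase encode the same mature protein, and they did not change alike. Atp5g2 was lower in all TIM groups: it measured 21.9, 23.6 and 18.8 CPM in FVB BM IMs, while primary tumor TIMs had 7.62 to 9.93 CPM and lymph node TIMs had 5.73 to 11.3 CPM. It measured 18.1, 21.5 and 19.4 CPM in DBA2 BM IMs and 10.8, 11.0, 12.7, 9.90 and 13.1 CPM in LN4K1 lung TIMs. The log2 fold changes were -1.32 (SE 0.14), -1.29 (SE 0.25) and -0.85 (SE 0.15), with edgeR adjusted p = 3.7e-05, 0.00267 and 0.00286, and with length removed they were -0.78, -0.84 and -0.88. The difference between the models was -0.45 (SE 0.19, edgeR adjusted p = 0.0991). Atp5g3 fell in primary tumor TIMs (-0.63, SE 0.11) and not in LN4K1 lung TIMs (0.14, SE 0.14), a difference of -0.75 (SE 0.17, edgeR adjusted p = 0.00537), and with length removed it was at -0.08 in primary tumor TIMs. Atp5g1 fell by 0.38 (SE 0.11) in primary tumor TIMs and was at 0.33 (SE 0.16) in LN4K1 lung TIMs.

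The marrow IMs of the strains also differed. In DBA2 BM IMs 18 of 85 members were lower than in FVB BM IMs (9.57% of all genes) and 2, Sdhc and Atp5sl, were higher (11.5% of all genes), with a median of -0.28 and one of 0.00 over all genes. FVB BM replicate 3 had the lowest share of counts on the members in its group (1.54%). Without it 59 members were called, and without FVB BM replicate 1 or 2, or without DBA2 BM replicate 3, none was called by edgeR at an adjusted p under 0.05. Without DBA2 BM replicate 1 or 2 the count was 1. With length removed 7 were lower and 2 higher. Among them Ndufaf4 and Ndufb6 stayed lower (-0.79 and -0.34) and Sdhc and Atp5sl stayed higher (0.78 and 0.55), while Cox6b2 was at -0.36 (edgeR adjusted p = 0.0648).

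Other mitochondrial genes on fixed lists were read beside the chain. Values with length removed were not taken for them, nor for the regulators, electron carriers and glycolysis genes below. Of all genes tested, 28.6% were lower and 33.3% higher in primary tumor TIMs. In lymph node TIMs these shares were 17.2% and 20.2%, and in LN4K1 lung TIMs 11.0% and 13.9%. Of 76 mitochondrial ribosomal protein genes, which translate the mitochondrial part of the chain, 71 were lower and 1 was higher in primary tumor TIMs (median -0.76), 47 were lower and 2 higher in lymph node TIMs, and 3 were lower and 7 higher in LN4K1 lung TIMs. Of 14 genes of the tricarboxylic acid cycle, which feeds NADH and succinate to the chain, 9 were lower and 2 higher in primary tumor TIMs and 6 were lower in lymph node TIMs, and none was called in LN4K1 lung TIMs by edgeR at an adjusted p under 0.05. Idh2, the mitochondrial isocitrate dehydrogenase, had the lowest fold change of the list in both LN2E1 groups. Its level was 174 to 215 CPM in FVB marrow, 81.7 to 97.3 CPM in the primary tumor (-1.15, edgeR adjusted p = 6.11e-06) and 53.3 to 76.2 CPM in lymph nodes (-1.58, edgeR adjusted p = 1.74e-05). Ogdh, a subunit of the 2-oxoglutarate dehydrogenase complex, was higher in primary tumor TIMs (0.62, edgeR adjusted p = 0.00668).

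Regulators of mitochondrial biogenesis were split. Of 12 tested in primary tumor TIMs, 5 were lower and 3 were higher (28.6% and 33.3% of all genes). Tfam, which packages and transcribes mitochondrial DNA, was lower (-0.97, edgeR adjusted p = 6.06e-05), at 16.8 to 20.7 CPM against 33.1 to 37.4 CPM in FVB BM IMs. It was also lower in lymph node TIMs (-0.98, edgeR adjusted p = 0.00602). Esrra, a nuclear receptor, and Pprc1, a coactivator of the same family as PGC-1, were higher in primary tumor TIMs (1.38 and 1.32, edgeR adjusted p = 0.00201 and 0.00275). Both were also higher in DBA2 than in FVB BM IMs (1.47 and 1.02, edgeR adjusted p = 0.0144 and 0.0498). Of 17 electron carrier genes 11 were lower and 3 higher in primary tumor TIMs, against the same shares of all genes.

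Glycolysis moved the other way. Of 19 genes on the list, 12 were higher in primary tumor TIMs and 12 in lymph node TIMs, with medians of 0.85 and 1.18. In these groups 33.3% and 20.2% of all genes were higher. Genes of at least 6000 bases also rose there as a class, with medians of 0.53 and 0.36. Values with length removed were not taken for the list. In primary tumor TIMs 1 gene of the list (Gpi1) was lower (28.6% of all genes). Of the 19 genes 3 were higher and 2 lower in LN4K1 lung TIMs (13.9% and 11.0% of all genes), with a median of -0.03. The difference between the models was positive for all 19 and passed the test for 12 (13.2% of all genes). Slc2a1, the glucose transporter GLUT1, measured 49.6 to 62.1 CPM in FVB BM IMs and 419 to 596 CPM in primary tumor TIMs (3.19, edgeR adjusted p = 3.13e-07), and 29.7 to 31.8 CPM in DBA2 BM IMs and 80.6 to 133 CPM in LN4K1 lung TIMs (1.85, edgeR adjusted p = 7.93e-05). Slc16a3, a lactate exporter, rose by 3.63 in primary tumor TIMs (edgeR adjusted p = 1.31e-05). It measured 14.2 to 31.4 CPM in FVB BM IMs and 205 to 324 CPM in primary tumor TIMs.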

How the data were processed

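RNA was measured by non-stranded, paired-end RNA-seq (SMARTer Ultra Low and Nextera XT libraries) of sorted IMs in 21 libraries. The authors deposited 1 table of raw read counts per gene, made per the study's methods and the submitters' processing notes with BBMap on mm10, SAMtools 1.8 and featureCounts 1.5.2. The featureCounts settings are not given in the sources used here.

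Members were taken by symbol, and the members and gene lists were chosen with earlier results of these data known. Genes passed edgeR's filterByExpr (minimum count 10, total 15), were scaled by TMM and tested with edgeR 4.0.16 (quasi-likelihood, robust) in R 4.3.3, with Benjamini-Hochberg adjustment over all genes of a comparison. Standard errors were taken as the fold change over the square root of F and are approximate. CPM values use TMM factors over all 21 libraries. Exon lengths come from GENCODE annotation of GRCm38, and the length trend was fitted per library by lowess (span 0.3). Named genes were the called members with the largest changes per comparison (mean log2 CPM above 3) and a fixed list of isoform pairs and core subunits. Alternatives were other scaling factors, filters, DESeq2 1.42.0, 1 fit of all groups, the length trend, a replicate block and leaving out each library. The scripts were tested on simulated data.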

Additional observations from a re-analysis of the deposited data

Results flagged for a closer look

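A single library lay far from the others of its group in 8 checks of named members and of the sum over all members, in groups of 5 libraries. At most 108 such checks were made, as genes with at most 3 counts in a group were skipped. Chance gives about 1 in 20 for independent checks, whereas these checks share libraries. Ndufa4l2 was highest in primary tumor replicate 3 at 0.814 CPM, with at most 0.133 CPM in the others, and in LN4K1 lung replicate 4 at 0.228 CPM, with at most 0.0317 CPM in the others. Sdhc measured 49.7 CPM in primary tumor replicate 3 and 40.2 to 42.8 CPM in the rest. In lymph node replicate 1, Cox4i2 measured 0.690 CPM and Ndufaf4 28.5 CPM, against at most 0.226 and 12.3 CPM elsewhere in the group. LN4K1 lung replicate 3 was highest for Cox5a (296 CPM, others 188 to 215) and Ndufaf4 (29.0 CPM, others 13.3 to 16.8) and lowest for Atp5b (620 CPM, others 921 to 997).

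The change in primary tumor TIMs was lower than that in LN4K1 lung TIMs for 20 named members by edgeR's interaction test at an adjusted p under 0.05. Among subunits of complex I the differences on the log2 scale were -0.53 for Ndufv1, -0.98 for Ndufv2, -1.04 for Ndufs7, -1.21 for Ndufa6, -0.93 for Ndufa12 and -0.93 for Ndufb6. Among its assembly factors they were -1.32 for Ndufaf4 and -1.05 for Ndufaf6. In complexes II and III they were -0.90 for Sdhb, -0.69 for Sdhd and -0.65 for Uqcrfs1. In complex IV they were -0.67 for Cox4i1, -0.68 for Ndufa4, -0.74 for Cox5b, -0.59 for Cox6a1, -0.89 for Cox7a2l, -0.57 for Cox8a and -1.24 for Cox6b2. In complex V they were -0.69 for Atp5g1 and -0.75 for Atp5g3. With length removed, Ndufv2, Ndufs7, Ndufa6, Ndufaf4, Sdhb, Cox6b2 and Atp5g1 kept an adjusted p under 0.05 in edgeR's test and the others did not. Cell line, strain, route and site differ together between the models and cannot be told apart.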

How the results depend on the processing

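Counts of called members are given in the order primary tumor, lymph node and LN4K1 lung TIMs against marrow, lymph node against primary tumor, DBA2 against FVB marrow, and the difference between models, where edgeR called 79, 20, 5, 12, 20 and 63. With a replicate block they were 51, 12, 1, 0, 10 and 49. Samples of 1 number did not deviate together (r between -0.154 and 0.0843 over 17 pairs), so the numbers were not taken as pairs. With the length trend removed they were 51, 20, 13, 9, 9 and 17. Members with a negative change then numbered 67 in place of 84 in primary tumor TIMs and 39 in place of 77 in lymph node TIMs. Among named genes called in either setting, the sign turned in primary tumor TIMs for Cox6a1 (0.0348), Cox7a2 (0.186), Cox8a (0.0314) and Ndufb6 (0.0654). In lymph node TIMs it turned for Cox8a (0.128), Uqcrfs1 (0.329) and Cox5a (0.312). It also turned there for named genes called in neither setting, such as Cox4i1 (-0.309, then 0.142) and Cox6a1 (-0.258, then 0.298). With all groups in 1 fit, lymph node and LN4K1 lung TIMs against marrow, lymph node against primary tumor and DBA2 against FVB marrow gave 36, 11, 6 and 4. DESeq2 called 10 members in LN4K1 lung TIMs, with or without shrinkage, and 14 were called there against FVB marrow, an alternative added after seeing the data. Lymph node against primary tumor gave 5 with DESeq2 size factors, 4 with upper-quartile factors, 7 with a filter of 1 count and 5 with 10 counts in every library. Leaving out 1 library gave 65 to 83, 11 to 37, 2 to 14, 2 to 37, 0 to 59 and 39 to 67. The cause of these changes was not tested. DESeq2 size factors moved the median of all genes in primary tumor TIMs from 0.08 to 0.14. Shrunken DESeq2 estimates were not run for the difference between models.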
